A study of Homo sapiens with 8 samples.

Results

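The MYC, MAX and MXD network was followed through its 10 genes in the gene count table, which lists 78691 genes. Members were the rows named MYCL, MYC, MYCN, MAX, MXD1, MXD3, MXD4, MXI1, MNT and MGA, and each name stood in a single row. RNA had been sequenced after poly(A) selection from 4 groups of 2 libraries. C4-2B, a castration-resistant prostate adenocarcinoma line, carried an empty lentiviral vector (C4-2B control) or a lentiviral vector with human MYCL and EGFP under the EF1A promoter (C4-2B MYCL). NCI-H660, a neuroendocrine prostate cancer line, received a non-targeting shRNA (shCtrl) or shRNA against MYCL (shMYCL). The series text gives the knockdown vector as adenoviral, while the sample labels speak of stable knockdown. Transduced C4-2B cells were selected with puromycin or sorted by fluorescence, and no group is described as a single clone. All cells came from 2 established lines, so every difference between groups refers to these lines. The control groups differ both in line and in construct, an empty vector against a non-targeting shRNA, and these cannot be told apart.

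MYC proteins bind DNA as dimers with MAX and activate genes that carry the E-box CACGTG and close variants. MXD proteins, MXI1 and MNT also pair with MAX, bind the same sites and recruit SIN3 and histone deacetylase corepressors, so they oppose MYC. MGA pairs with MAX as well and belongs to a polycomb complex named PRC1.6. In prostate tumors, MYC is the paralog usually linked to adenocarcinoma, while MYCL and MYCN are linked to neuroendocrine disease.

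Libraries held between 15177071 and 32344170 counts. Levels are given in TPM, a transcript abundance scaled by gene length and library size that can be compared between genes. Differences are log2 fold changes from edgeR's quasi-likelihood test on counts, with Benjamini-Hochberg adjusted p-values over all genes tested, and a call needed both an adjusted p below 0.05 and a change of 0.5 or more on the log2 scale in either direction. Of 10 luminal markers, 8 were lower in shCtrl than in C4-2B control cells, beside 34.2% of all genes lower and 37.4% higher. Of the lower markers, 5, with KLK3, KLK2, FOLH1 and HOXB13 among them, had at most 3 counts in every NCI-H660 library. The keratin gene KRT8 was higher in NCI-H660, by a log2 fold change of 0.74, and KRT18 was not called, both named after their values were seen. The summed TPM of the luminal markers was between 3122 and 3160 in C4-2B control and between 2292 and 2351 in C4-2B MYCL libraries. It was between 1268 and 1274 in shCtrl and between 1396 and 1422 in shMYCL libraries. The summed TPM of 10 neuroendocrine markers was between 6.94 and 6.998 in C4-2B control, between 7.14 and 7.35 in C4-2B MYCL, between 1236 and 1398 in shCtrl and between 1000.5 and 1116 in shMYCL libraries. In C4-2B control cells, 5 of these 10 genes had at most 3 counts in both libraries. In C4-2B MYCL cells, whose libraries were smaller, 8 of the 10 did. Within the lines, 3 of 10 luminal markers fell and none rose in C4-2B MYCL cells, beside 8.12% and 11.8% of all genes. SLC45A3 and KLK3 were among those that fell, by 1.55 and 0.52 on the log2 scale. After knockdown in NCI-H660, 3 of 9 tested neuroendocrine markers fell and none rose, beside 8.99% and 7.18% of all genes. POU3F2 and INSM1 were among those that fell, by 0.88 and 0.65. Of 5 luminal markers tested there, 1 rose and none fell. In C4-2B, neither of the 2 neuroendocrine markers tested was called by edgeR or DESeq2 or had an unadjusted p below 0.05. KLK3 and INSM1 were named after their values were seen, and the part of these shifts in the results on the network was not tested. Since RNA came from bulk cultures, less transcript per cell and fewer cells with the transcript cannot be told apart.

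The targeted gene followed its labels. MYCL stood at 5.47 and 6.39 TPM in the C4-2B control libraries and at 1363 and 1435 TPM in the MYCL libraries. In NCI-H660 it stood at 64.3 and 48.2 TPM with shCtrl and at 6.18 and 6.997 TPM with shMYCL. The level after knockdown overlapped that of C4-2B control cells on TPM but lay below it on CPM. CPM is scaled by library size after TMM normalization and not by gene length. The vector-driven level was far above the level that NCI-H660 cells reach on their own. Counts from the vector and from the endogenous gene are not separated.

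MYCL was the gene targeted in both lines, so its calls within them were set by the design, although the counts of members below include it. Besides MYCL, the members called within the lines were MYC, MXI1, MXD1 and MXD3. In C4-2B MYCL against control cells, 3 of the 9 tested members were called, all higher: MYCL, MXD1 and MXI1. Of all 16866 genes tested there, 19.9% were called, 11.8% higher and 8.12% lower. In shMYCL against shCtrl cells, 4 of 10 members were called, with MYC higher and MYCL, MXI1 and MXD3 lower, beside 16.2% of 16980 genes, 7.18% higher and 8.99% lower. Between the control lines, 5 of 10 members were called, which is a smaller share than the 71.6% of all 18748 genes. MXI1 was the only member besides MYCL that was called in both within-line comparisons, and it was higher in the MYCL-high cells of each line.

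**Figure D1:**
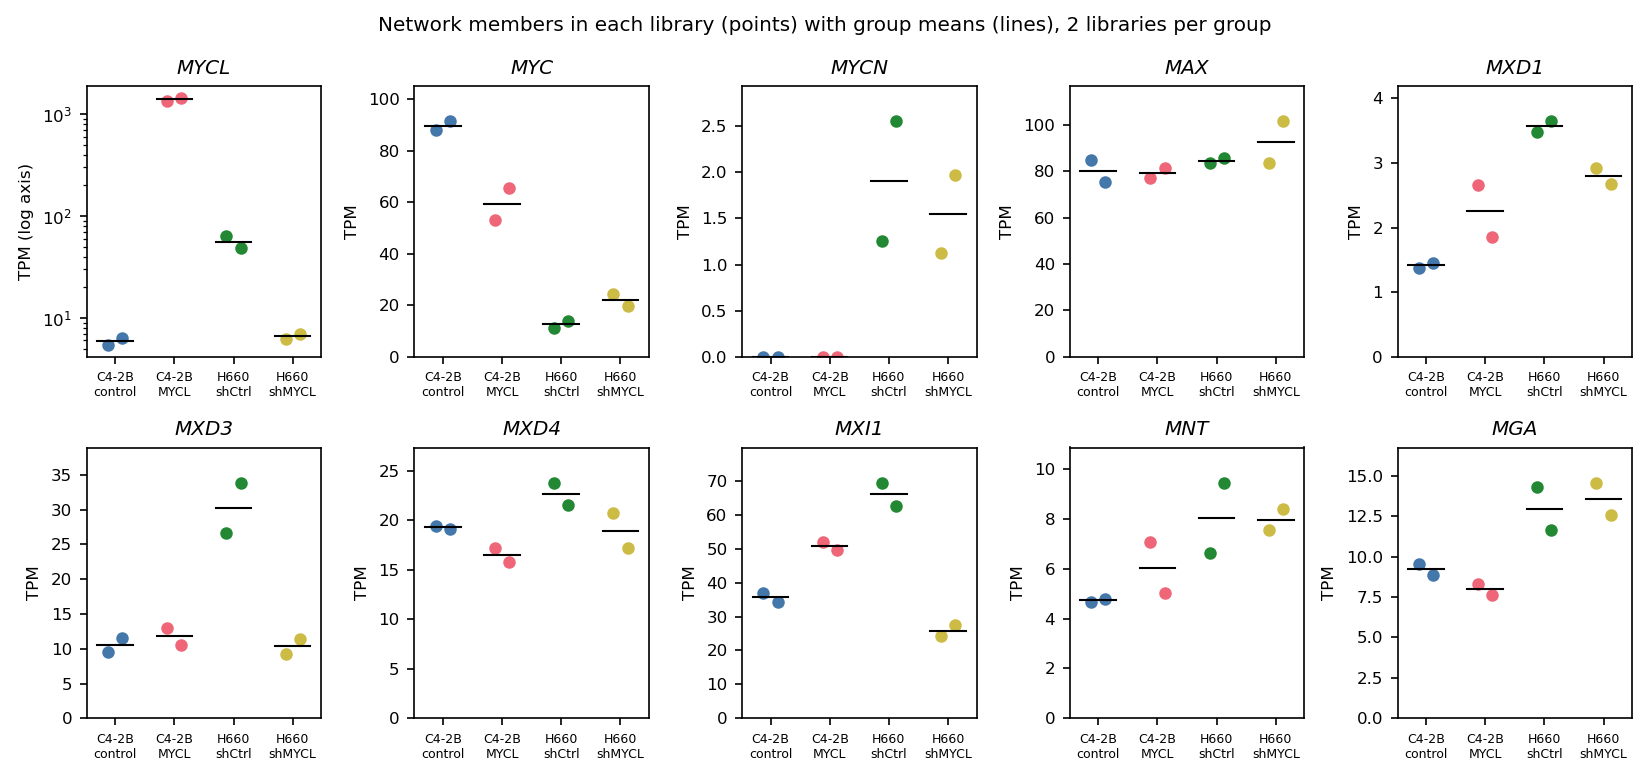
TPM of each network gene (vertical axes, linear from 0 except for MYCL, which has a log axis) in the 8 libraries, with points for libraries and lines for the means of 2 libraries. MXI1 and MXD3 are lower in both shMYCL libraries than in both shCtrl libraries, and MYC is highest in C4-2B control and lowest in shCtrl cells.

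MYC is the broadly expressed founder of the family and the main MYC paralog of adenocarcinoma. It stood at 88.2 and 91.5 TPM in C4-2B control, 53.2 and 65.7 TPM in C4-2B MYCL, 11.3 and 14.1 TPM in shCtrl and 24.3 and 19.6 TPM in shMYCL libraries. No neighbours in this order overlapped, so MYC was lowest where NCI-H660 kept its own MYCL and highest where C4-2B had little MYCL. After knockdown MYC rose by a log2 fold change of 0.78 (standard error 0.16, edgeR adjusted p = 0.00198), and the value lay between 0.60 and 1.01 when any 1 library was left out. Even then its mean of 21.98 ± 3.35 TPM (SD, n = 2) stayed below the 59.4 ± 8.82 TPM (SD, n = 2) of MYCL-overexpressing C4-2B cells. In C4-2B the log2 fold change was −0.44 (standard error 0.09, edgeR adjusted p = 0.00481), which passed the p threshold but not the minimum fold. It was −0.57 without C4-2B MYCL replicate 2, which is a call, and −0.32 without C4-2B MYCL replicate 1. On log2(TPM + 1), where limma called the change, it was −0.60 beside a median of −0.14 over all genes.

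Both experiments thus gave MYC a higher level in the cells with less MYCL, although the change in C4-2B was not called. The difference between the 2 effects, each taken as MYCL-high minus MYCL-low, was 0.34 (standard error 0.19, edgeR adjusted p = 0.25), so unequal effects were not shown. PVT1, a noncoding gene beside MYC, had log2 fold changes of 0.05 in C4-2B and 0.32 in NCI-H660, neither of them called. Between the control lines MYC was lower in NCI-H660 by a log2 fold change of −3.31 (standard error 0.13, edgeR adjusted p = 4.33e-10), while PVT1 was lower by −1.38. Line and control construct cannot be told apart in this comparison.

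MYCN, the paralog known from neuroblastoma and some neuroendocrine prostate cancers, was not counted in C4-2B (0 counts in all 4 libraries, and a count of 0 allows up to 3). In NCI-H660 it had 24 and 53 counts with shCtrl and 24 and 36 counts with shMYCL, or 1.26 and 2.55 TPM against 1.12 and 1.97 TPM. The groups overlapped, and the log2 fold change was −0.15 (standard error 0.42, edgeR adjusted p = 0.834). Set against 3 counts per library, MYCN was at least 17.5-fold higher in shCtrl than in C4-2B control cells, or at least 11.6-fold without shCtrl replicate 2, yet it was the least abundant member per length in both NCI-H660 groups.

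The 3 MYC paralogs changed places between the groups. MYCL made up 5.84% and 6.53% of their summed TPM in C4-2B control libraries and 96.2% and 95.6% in C4-2B MYCL libraries. In NCI-H660 its share was 83.7% and 74.3% with shCtrl and 19.5% and 24.5% with shMYCL. The dominant paralog was therefore MYC in C4-2B control and shMYCL cells and MYCL in the other groups. In C4-2B MYCL and shMYCL cells this follows from the vector and the shRNA, so only the control groups show the balance without MYCL being targeted. The summed level differed more than the shares show, with 93.7 and 97.9 TPM in C4-2B control, 1417 and 1500.4 TPM in C4-2B MYCL, 76.9 and 64.8 TPM in shCtrl and 31.6 and 28.6 TPM in shMYCL libraries. The rise of MYC after knockdown did not restore the summed level of the paralogs in NCI-H660 cells.

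MAX, the partner shared by the other members, showed little movement. It stood at 84.9 and 75.5 TPM in C4-2B control, 77.1 and 81.5 TPM in C4-2B MYCL, 83.4 and 85.9 TPM in shCtrl and 83.6 and 101.5 TPM in shMYCL libraries. All neighbours in the order overlapped on this scale. The log2 fold change was 0.02 (standard error 0.09) in C4-2B and −0.01 (standard error 0.12) in NCI-H660, with edgeR adjusted p of 0.871 and 0.956, and both values change sign on TPM. Between the lines the count-based value was −0.45 (standard error 0.09, edgeR adjusted p = 8.58e-04), under the minimum fold, while on log2(TPM + 1) it was 0.08 beside a median of 0.57 over all genes. MAX was within the 2 most abundant members in every group. The summed MYC paralogs came to 1.10 and 1.30 times the MAX level in C4-2B control, 18.4 and 18.4 times in C4-2B MYCL, 0.922 and 0.754 times in shCtrl and 0.378 and 0.281 times in shMYCL libraries.

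MXI1, also called MXD2, is a MAX partner that represses through SIN3 and is known as a target of hypoxia-inducible factors. It stood at 36.9 and 34.4 TPM in C4-2B control and 52.0 and 49.5 TPM in C4-2B MYCL libraries. In NCI-H660 it stood at 69.4 and 62.7 TPM with shCtrl and 24.2 and 27.4 TPM with shMYCL. No neighbours in the order overlapped. MXI1 rose in C4-2B by a log2 fold change of 0.67 (standard error 0.07, edgeR adjusted p = 2.68e-04) and fell in NCI-H660 by 1.35 on the log2 scale (standard error 0.11, edgeR adjusted p = 9.54e-07). The call in NCI-H660 held in each fit without 1 library, with values from −1.38 to −1.30. In C4-2B the value on log2(TPM + 1) was 0.50, just under the minimum fold, and 0.64 relative to the median of all genes on that scale.

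MXD3, a family member linked to proliferating cells, moved in 1 line. It stood at 9.47 and 11.5 TPM in C4-2B control and 13.01 and 10.5 TPM in C4-2B MYCL libraries, which overlap. Its log2 fold change there was 0.04 (standard error 0.16, edgeR adjusted p = 0.864). In NCI-H660 it went from 26.7 and 33.9 TPM with shCtrl to 9.26 and 11.4 TPM with shMYCL, a log2 fold change of −1.41 (standard error 0.18, edgeR adjusted p = 5.83e-05). Its level after knockdown overlapped that of the C4-2B groups on TPM and was below both on CPM. MXD3 shares 43.7% of its exon bases with neighbouring genes, RAB24 on the same strand and PRELID1 on the opposite strand, and whether counting used the strand is not stated, so part of its counts may belong to those genes.

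The change from MYCL-low to MYCL-high cells differed between the experiments for both genes. Line, kind of manipulation and size of the MYCL change differ together here, so they cannot be told apart. The difference, C4-2B minus NCI-H660 on the log2 scale, was −0.68 for MXI1 (standard error 0.12, edgeR adjusted p = 0.00204) and −1.37 for MXD3 (standard error 0.25, edgeR adjusted p = 0.00226). With MYCL itself, at 5.19, these were the 3 members called for the difference, beside 17.9% of 19605 genes, 9.59% in the direction of MYCL and 8.33% in the other. The change was thus larger in the NCI-H660 knockdown than in the C4-2B overexpression for both repressors. The value for MYCL restates how far the vector and the shRNA moved it. These 3 calls were also made under each alternative normalization, filter, tool and left-out library that was tried, and MXI1 missed only the stricter minimum fold of 1.

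Promoters of these genes are shown because MXI1 and MXD3 moved together in NCI-H660 and because E-boxes are the sites that the network binds. RefSeq promoters (GRCh38.p14, 250 bases before to 50 after a start) were given for 9 of the 10 members, in 14 entries, and each was searched on both strands for CACGTG, which reads the same on either strand, and for the variant CACGCG, whose other strand reads CGCGTG. Capitals mark the match, bases run 5′ to 3′ on the strand of the gene, and positions count from 1 at the first transcribed base.
MXI1, start 3, chr10:110225961-110226020, + strand: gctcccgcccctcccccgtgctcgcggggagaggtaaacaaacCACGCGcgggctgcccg
MXD3, chr5:177312728-177312787, − strand: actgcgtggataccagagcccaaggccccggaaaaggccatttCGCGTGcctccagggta
MNT, chr17:2401221-2401280, − strand: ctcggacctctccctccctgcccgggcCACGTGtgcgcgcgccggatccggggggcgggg
MXD4, chr4:2262315-2262359, − strand: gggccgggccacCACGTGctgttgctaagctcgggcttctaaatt
The variant begins at base 9 in both MXI1, at the third of its starts, and MXD3, and it also stood in 1 MGA promoter. The canonical E-box stood only in MNT, at −193, and MXD4, at −238. Among 35116 RefSeq promoters of the same length, 7.26% held CACGTG and 11.4% held the variant. A match describes the letters of the window and not a bound site.

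**Figure D2:**
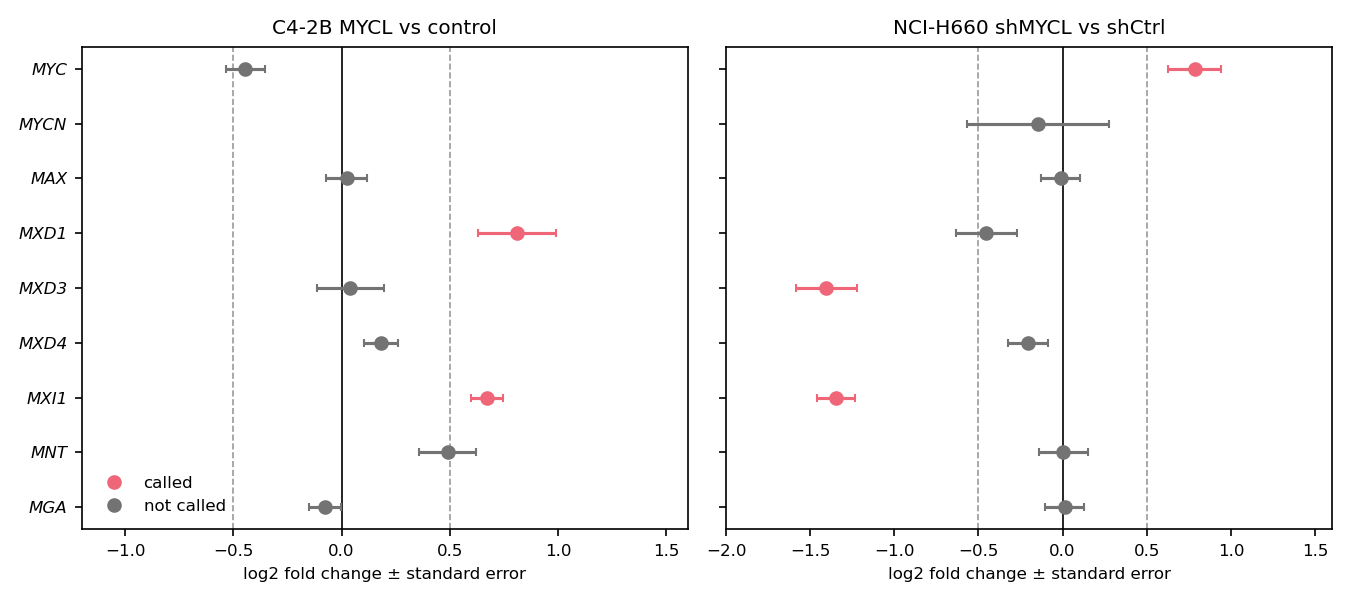
Log2 fold change of the network genes other than MYCL (points) with standard errors (bars) for C4-2B MYCL against control and for NCI-H660 shMYCL against shCtrl, 2 libraries per group. Red points are called, dashed lines mark the minimum fold of 0.5 in either direction, and MXI1 lies right of the line at 0.67 in C4-2B and left of it at −1.35 in NCI-H660. MYCN was not tested in C4-2B.

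MXD1, a repressor often raised when cells leave the cycle and differentiate, was the rarest MXD gene per length. It stood at 1.37 and 1.46 TPM in C4-2B control, 2.65 and 1.86 TPM in C4-2B MYCL, 3.49 and 3.64 TPM in shCtrl and 2.92 and 2.67 TPM in shMYCL libraries. The 4 groups did not overlap on this scale, although C4-2B MYCL, at up to 2.65, lay close to shMYCL, at 2.67 or more. The ratio of counts to TPM, relative to the library median, was 1.70 in shMYCL replicate 2 and between 1.93 and 1.97 in the other libraries. On CPM, C4-2B MYCL had the highest mean and overlapped shCtrl cells. MXD1 rose in C4-2B by a log2 fold change of 0.81 (standard error 0.18, edgeR adjusted p = 0.00779), with 0.60 to 1.00 when single libraries were left out. With limma on log2(TPM + 1) the value was 0.42 and was not called. In NCI-H660 the log2 fold change was −0.45 (standard error 0.18, edgeR adjusted p = 0.0811), below both thresholds. The difference between the effects in the lines was 0.36 (standard error 0.27, edgeR adjusted p = 0.40).

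MXD4, another repressor that uses SIN3, showed no called change. Its libraries held 19.4 and 19.2 TPM in C4-2B control, 17.2 and 15.8 TPM in C4-2B MYCL, 23.8 and 21.6 TPM in shCtrl and 20.7 and 17.2 TPM in shMYCL cells. On counts its log2 fold change in C4-2B was 0.18 (standard error 0.08, edgeR adjusted p = 0.106), and on log2(TPM + 1) it was −0.22, so the direction depends on the scale. In NCI-H660 it was −0.21 (standard error 0.12, edgeR adjusted p = 0.223).

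MNT, the repressor present in most cell types and cycle phases, had 604 and 449 counts in C4-2B control and 550 and 397 counts in C4-2B MYCL libraries, which the smaller MYCL libraries turn into 4.68 and 4.78 against 7.07 and 5.02 TPM. The log2 fold change was 0.49 (standard error 0.13, edgeR adjusted p = 0.0186), under the minimum fold. The value was 0.67, a call, without C4-2B MYCL replicate 2 and 0.29 without C4-2B MYCL replicate 1, so 1 library decides it. In NCI-H660, MNT stood at 6.61 and 9.44 TPM with shCtrl and 7.54 and 8.38 TPM with shMYCL, and the log2 fold change was 0.00 (standard error 0.15, edgeR adjusted p = 0.99). Replicate 2 of both NCI-H660 groups had a shorter length behind its MNT values. The ratio of counts to TPM, relative to the library median, was 1.21 and 1.22 in those libraries and between 1.69 and 1.74 in the others, so MNT levels per length are uncertain there. MNT shares 12.2% of its exon bases with an antisense gene.

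MGA, the largest protein of the network, was steady within each line. It stood at 9.55 and 8.88 TPM in C4-2B control, 8.33 and 7.62 TPM in C4-2B MYCL, 14.3 and 11.6 TPM in shCtrl and 14.6 and 12.6 TPM in shMYCL libraries. The log2 fold changes were −0.08 (standard error 0.07) in C4-2B and 0.01 (standard error 0.11) in NCI-H660, with edgeR adjusted p of 0.446 and 0.959.

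Between the control lines, the repressors were not uniformly higher or lower on counts. MXD1 was higher in NCI-H660 by a log2 fold change of 0.73 (standard error 0.19, edgeR adjusted p = 0.00344) and MXD3 by 0.63 (standard error 0.18, edgeR adjusted p = 0.00613), and MXD3 fell to 0.47 without shCtrl replicate 2 and 0.49 without C4-2B control replicate 1. MXI1 had 0.20, which edgeR did not call, and 0.87 on log2(TPM + 1), which limma did call. With limma on that scale 7 members were called, MXI1 and MNT in addition. MXD4, MNT and MGA had −0.08, −0.11 and −0.16 on counts and turned to 0.22, 0.64 and 0.45 on log2(TPM + 1), a scale on which all genes had a median of 0.57. Relative to that median the 3 values were −0.35, 0.07 and −0.12. MYCL was higher by 2.82 (standard error 0.14, edgeR adjusted p = 3.84e-09).

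Summed on the TPM scale, the repressor transcripts were higher in both MYCL-high libraries than in both MYCL-low libraries of each line. MXD1, MXD3, MXD4, MXI1 and MNT together came to 71.8 and 71.3 TPM in C4-2B control, 91.9 and 82.7 TPM in C4-2B MYCL, 130.0 and 131.2 TPM in shCtrl and 64.7 and 67.0 TPM in shMYCL libraries. MXI1 was the largest part in each library, between 37.5% and 59.9%. No exact permutation test of such a sum could give a p below 0.33 with 2 libraries per group, so the sums are descriptions. The ratio of summed MYC paralogs to summed repressors was 1.30 and 1.37 in C4-2B control, 15.4 and 18.2 in C4-2B MYCL, 0.592 and 0.494 in shCtrl and 0.489 and 0.426 in shMYCL libraries. Knockdown lowered both sums, and their ratio changed by −0.24 on the log2 scale of TPM and by −0.76 on that of CPM, so the size of that shift depends on the scale.

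**Figure D3:**
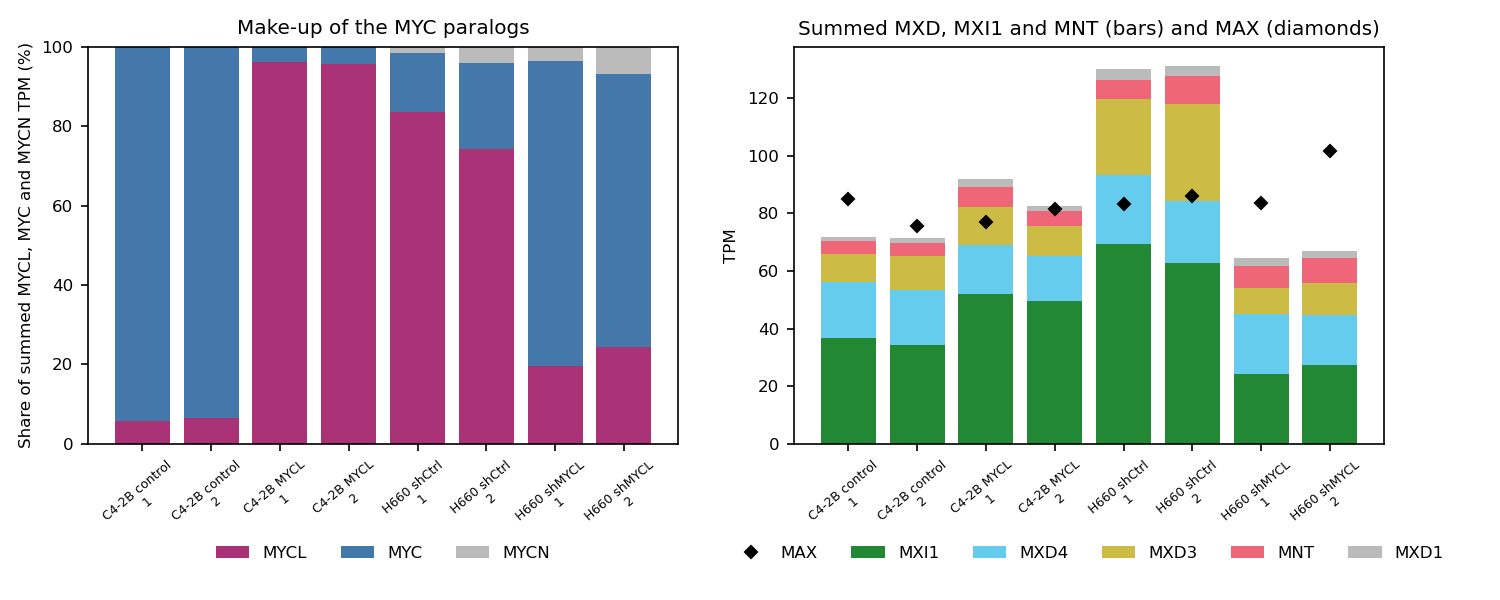
Left, share of MYCL, MYC and MYCN in their summed TPM (percent) in each of the 8 libraries. Right, stacked TPM of MXI1, MXD4, MXD3, MNT and MXD1, with diamonds for MAX: the stack reaches 131.2 TPM in shCtrl and 67.0 TPM in shMYCL cells, while MAX stays between 75.5 and 101.5 TPM.

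The MLX branch, in which MLX pairs with the glucose-sensing activators MLXIP (MondoA) and MLXIPL (ChREBP) and with some MXD proteins and MNT, held 1 called gene within the lines. MLXIPL was called in C4-2B, at 1.39 on the log2 scale (standard error 0.30, edgeR adjusted p = 0.00665) at low levels of 1.94 ± 0.293 and 5.07 ± 1.28 CPM (SD, n = 2 each). MLXIP had −0.44 (standard error 0.08, edgeR adjusted p = 0.00293), under the minimum fold, and MLX had 0.16. None of the 3 was called in NCI-H660 by edgeR or DESeq2, where MLX had 0.37 (edgeR adjusted p = 0.0301), which missed only the minimum fold, MLXIP 0.16 and MLXIPL −0.36. Between the control lines MLX was lower in NCI-H660 by a log2 fold change of −1.70.

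Genes that cooperate with the members were summarized from lists of known partners. Of 25 MYC cofactors, such as subunits of acetyltransferase and elongation complexes, none rose and 5 fell in C4-2B MYCL cells, and the list median was −0.30 on the log2 scale beside −0.00 over all genes, of which 11.8% rose and 8.12% fell. The 5 were WDR5, HCFC1, PAF1, MYCBP2 and TFAP4, of which HCFC1 and PAF1 were named after their values were seen. MYCBP2, a ubiquitin ligase first found as a MYC-binding protein, had the largest fall, −1.13 (standard error 0.08, edgeR adjusted p = 3.19e-05). In NCI-H660, 1 cofactor rose after knockdown, WDR5 at 0.50, which anchors MYC to chromatin, and 1 fell, TFAP4 at −0.54, a transcription factor that is also a MYC target, with a list median of −0.02, beside 7.18% and 8.99% of all genes. Neither was called without shCtrl replicate 1 or without shMYCL replicate 2, and TFAP4 was −0.43 without the former. WDR5 had −0.69 in C4-2B, so it was lower in the MYCL-high cells of both lines, although its call in NCI-H660 sits at the minimum fold.

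Of 17 corepressors used by MXD proteins and MNT, 1 fell in C4-2B, the SIN3 subunit ING2 at −0.62, beside 8.12% of all genes. After knockdown in NCI-H660, 1 fell, the SIN3 subunit SAP30 at −0.75, beside 8.99% of all genes. The list medians were −0.04 and 0.07. Between the control lines 10 of the 17 were higher and 3 lower in NCI-H660, beside 37.4% and 34.2% of all genes. Of 11 PRC1.6 partners of MGA, none was called in C4-2B by edgeR's quasi-likelihood test or by DESeq2, 5 had an unadjusted p below 0.05, and 1 was called when any library except C4-2B control replicate 2 was left out, while 1 fell in NCI-H660, the E2F partner TFDP2 at −0.54, which was −0.41 and not called without shCtrl replicate 1. Of 25 genes that control MYC protein stability, CIP2A at −0.95 and SKP2 at −0.53 fell in C4-2B. After knockdown SKP2 rose by 0.92 and the kinases PLK1 and AURKA fell by 0.91 and 0.85 on the log2 scale, where AURKA was named after its values were seen. These shares of the stability genes were near those of all genes, 8.12% lower in C4-2B and 7.18% higher and 8.99% lower in NCI-H660, and the counts reached 5 without C4-2B control replicate 2 or without shMYCL replicate 1. CIP2A protects MYC from dephosphorylation, SKP2 is a ubiquitin ligase subunit for MYC, and PLK1 and AURKA stabilize MYC family proteins.

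Known targets of MYC were set beside the members in both lines, from lists drawn up with results of these data known. Of 68 MYC-induced genes, which serve ribosome making, nucleotide synthesis, translation and growth, 3 rose and 27 fell in C4-2B MYCL cells, and the median log2 fold change was −0.40, beside 11.8% and 8.12% of all genes. CDC25A, a phosphatase that drives cells into S phase, had the largest fall, −1.38 (standard error 0.14, edgeR adjusted p = 1.83e-04). The 3 that rose were CCND2, with 0 and 1 counts in control and 11 and 10 counts in MYCL libraries, and the glycolytic genes HK2 at 0.58 and ENO1 at 0.51, of which HK2 and ENO1 were named after their values were seen. In shMYCL cells 8 of 67 rose and 2 fell, with a median of 0.19, beside 7.18% and 8.99% of all genes. CDC25A rose by 1.09 (standard error 0.11, edgeR adjusted p = 5.96e-06). The 2 that fell were HK2, at −2.63 (standard error 0.13, edgeR adjusted p = 4.29e-09), and the transferrin receptor gene TFRC at −0.92, which was named after its values were seen. The list median was thus lower in the MYCL-high cells of each line, and HK2 was higher there in both.

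Of 28 genes known to be repressed by MYC, 11 of 25 tested rose and 2 fell in C4-2B MYCL cells, and the list median was 0.36 on the log2 scale, or 0.06 on log2(TPM + 1) without a filter. Of all genes, 11.8% rose and 8.12% fell. GADD45B, a stress-response gene, had the largest rise, 2.72 (standard error 0.10, edgeR adjusted p = 2.33e-06). TXNIP, which limits glucose uptake and is activated by MondoA, had the largest fall, −2.88 (standard error 0.13, edgeR adjusted p = 3.91e-06), and THBS1 fell by 1.20 on the log2 scale and was named after its values were seen. In shMYCL cells 2 of 24 rose and 6 fell, with a median of −0.21, beside 7.18% and 8.99% of all genes. The cell-cycle inhibitor CDKN1A rose by 0.52 and NDRG2, named after its values were seen, by 0.51, while cyclin D1 (CCND1) had the largest fall, −1.07 (standard error 0.17, edgeR adjusted p = 2.93e-04). Between the control lines, 5 of 67 MYC-induced genes were higher and 49 lower in NCI-H660, with a median of −0.87, beside 37.4% and 34.2% of all genes.

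**Figure D4:**
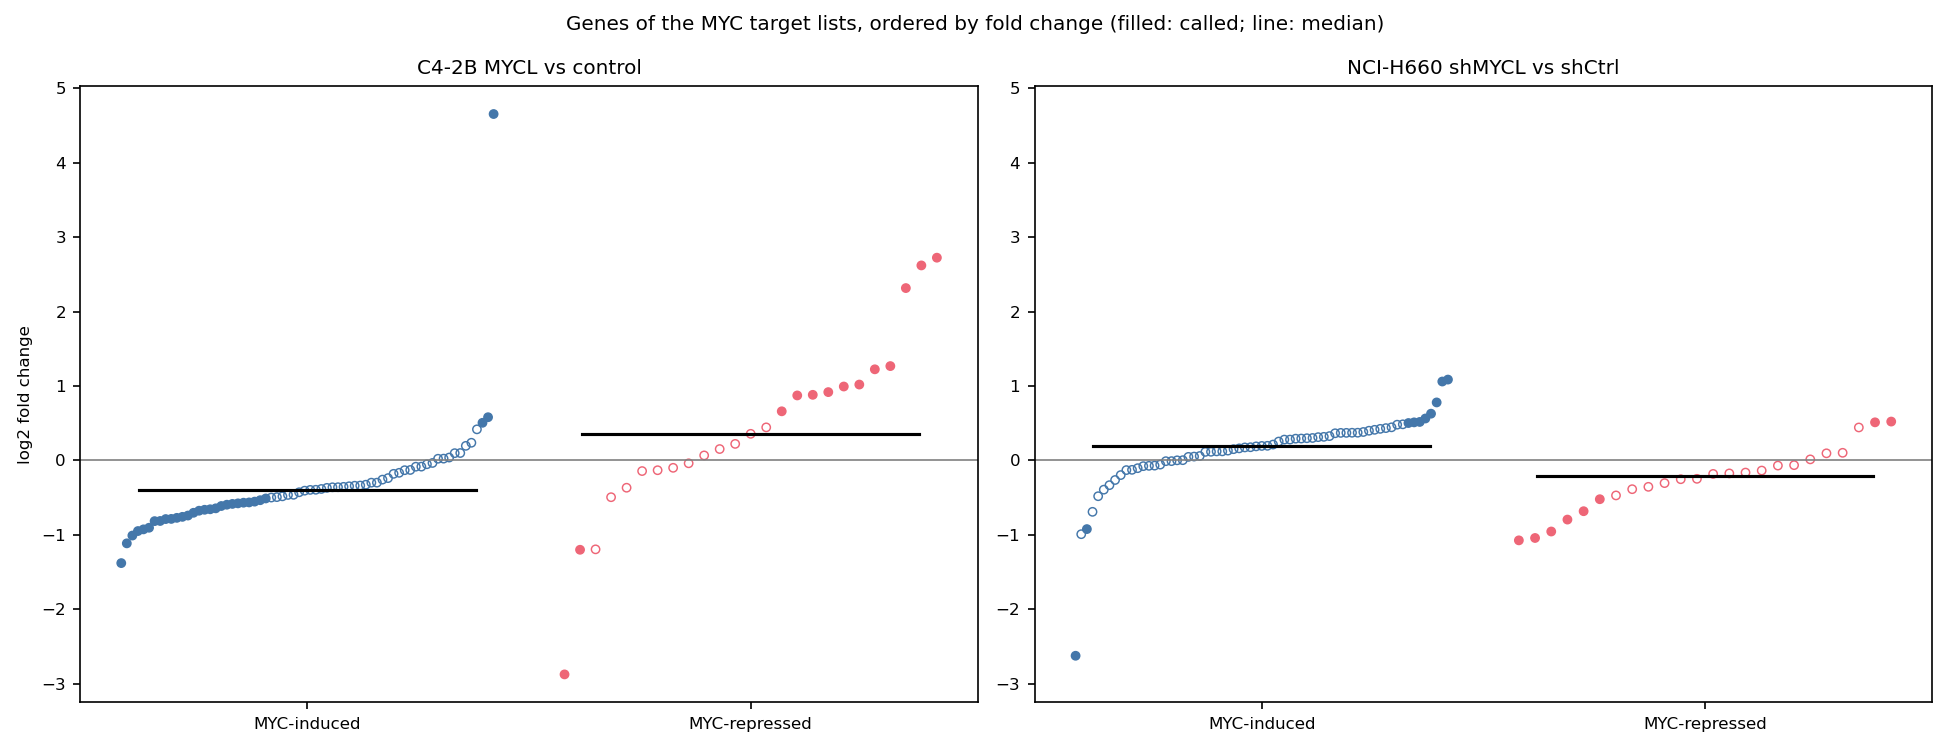
Log2 fold changes of the genes of the MYC-induced and MYC-repressed lists, ordered within each list, for C4-2B MYCL against control (left) and NCI-H660 shMYCL against shCtrl (right), with filled points for called genes and lines for medians. The medians are −0.40 and 0.36 on the left and 0.19 and −0.21 on the right.

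Antisense and neighbouring transcripts were examined for reads that could stem from the members. MYCL-AS1 runs against MYCL and shares 226 exon bases with it, which is 4.55% of the MYCL exon bases and 28.8% of its own. It had 1 and 0 counts in C4-2B control, 26 and 11 counts in C4-2B MYCL and 1 count in each NCI-H660 library. It rose only where the vector was present, and reads of the 2 strands cannot be told apart here because the strand setting of the counting is not stated. MYCNUT, MYCNOS, CASC11 and MAX-AS1 had few counts and were not tested within either line.

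The genes closest in pattern to MYC over the 8 libraries, by root mean square difference of centred log2 CPM among 11176 genes, were ADGRE5 at 0.20, MPHOSPH6 at 0.22 and RGMB at 0.23. In C4-2B, ADGRE5 and MPHOSPH6 had lower mean CPM in MYCL than in control libraries, while RGMB did not (34.6 against 34.2 CPM). For MYCL the closest were HMOX1 at 2.09, MAB21L4 at 2.23 and HERPUD1 at 2.27. No gene came near its pattern, which the vector and the shRNA had set.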

How the data were processed

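The authors deposited gene-level estimated counts, not normalized between libraries, and TPM values, which the study describes as counts divided by Ensembl gene length and scaled to a fixed library total. Of the non-zero values, 22.4% were not whole within 0.01, so the estimated counts were rounded. The genome build in the submitters' processing notes was hg38, and the aligner and counting tool are not given in the sources used here. The deposited TPM table ends at 65535 genes and holds all members, and its implied gene lengths differ between libraries.

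Each comparison was fitted in edgeR 4.0.16 (R 4.3.3) with TMM normalization, filterByExpr, the quasi-likelihood test and Benjamini-Hochberg adjustment. The study used DESeq2, which was an alternative here (version 1.42.0), as was limma 3.58.1 on TPM. With 2 libraries per group, an exact permutation test cannot go below p = 0.33. Nothing in the labels of 6 of the 8 libraries says that they came from separate cultures, so p-values there measure the spread between libraries.

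Named genes were the members, MLX, MLXIP, MLXIPL, the called gene with the largest rise and fall in each list and line, overlapping genes and the 3 nearest patterns to MYC and MYCL. Single results for some genes of the marker lists are not reported here. Members and lists were chosen with earlier results of these data known. Gene positions came from GENCODE 44, promoters from RefSeq GRCh38.p14, and tables were made with Python 3.11.15 and pandas 2.3.3.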

Additional observations from a re-analysis of the deposited data

Results flagged for a closer look

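The change from MYCL-low to MYCL-high cells was compared between the lines, as C4-2B minus NCI-H660 on the log2 scale, in 1 fit of all 8 libraries. Overexpression in C4-2B is set against knockdown in NCI-H660 there, so line and manipulation cannot be told apart. By edgeR's quasi-likelihood test the difference was called for 3 of 10 members, beside 17.9% of all 19605 genes. In all, 16 reported genes were called, a count that is not set against that share because most were named for their changes in these data. Among members these were MYCL at 5.19, MXD3 at −1.37 and MXI1 at −0.68. In the MLX branch it was MLX at 0.54 (edgeR adjusted p = 0.022), which was not called when any 1 of 5 libraries was left out (shCtrl replicate 2, shMYCL replicates 1 and 2, C4-2B control replicate 2 or C4-2B MYCL replicate 2) and was 0.14 on log2(TPM + 1). The MYC-induced gene HK2 had −2.05, and the MYC-repressed genes had 2.65 for GADD45B, 1.51 for CDKN1A, −1.57 for CCND1 and −2.94 for TXNIP. TXNIP fell in C4-2B MYCL cells and had no called change in NCI-H660. The cofactors MYCBP2 and TFAP4 had −1.10 and −1.08, the corepressor subunits ING2 and SAP30 −0.88 and −0.73, and the stability genes CIP2A and PLK1 −0.95 and −1.32. The luminal marker SLC45A3 had −1.77. Apart from the members and MLX, these genes had been named for the largest called rise or fall of their list in a line of these data. A difference between the lines was therefore likely from the start, and their calls are not a separate result.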

How the results depend on the processing

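In C4-2B, 3355 genes and 3 members were called, against 5895 and 5 with no minimum fold, 1411 and 1 with a minimum of 1, and 1940 and 1 by limma on log2(TPM + 1) without a filter. With the filter limma called 3003 genes there, and 3158 on log2(TPM + 0.1). In NCI-H660, 2745 genes and 4 members were called, against 4204 and 1022 genes with those minimums. Limma called 1702 genes on log2(TPM + 1), 1600 on log2(TPM + 0.1) and, without a filter, 1 gene and 0 members, with 29413 genes tested. Between the lines, 13427 genes and 5 members were called, against 8934 genes with at least 10 counts in every library, and 3 members with a minimum fold of 1. For the difference between lines, 3513 genes were called, 1666 with a minimum of 1 and 1898 by limma on log2(TPM + 1) without a filter, against 2956 with it and 2489 on log2(TPM + 0.1). Without single libraries the gene counts ranged over 2835 to 3556, 2292 to 3035, 13079 to 13568 and 2532 to 3513, and the member counts over 3 to 5, 4 to 4, 4 to 5 and 3 to 4. Members at 5 came without C4-2B MYCL replicate 2, which added MYC and MNT. A lone library was then assumed to vary like the other groups. The activator to repressor ratio moved from 3.65 to 4.17 in C4-2B and from −0.24 to −0.76 in NCI-H660 on CPM, and over 3.53 to 3.76 and −0.37 to −0.11 without single libraries. Fold changes that turned sign were not called on counts. On TPM they were MAX at −0.0147 and −0.0149, MXD4 at −0.22 and −0.23 and MLX at −0.0718 and −0.0729 in C4-2B, MAX at 0.12 in NCI-H660, and, between lines, MAX at 0.0787 and 0.0796, MXD4 at 0.22 and 0.23, MNT at 0.64 and 0.73, and MGA at 0.45 and 0.48. MNT in NCI-H660 was −0.00396 with at least 10 counts and −0.00295 with the replicate block. Without single libraries, the ranges in C4-2B were −0.10 to 0.15 for MAX and −0.10 to 0.17 for MXD3. In NCI-H660 they were −0.14 to 0.11 for MAX, −0.56 to 0.45 for MYCN, −0.17 to 0.17 for MNT and −0.10 to 0.12 for MGA, and between lines −0.10 to 0.00401 for MXD4. Over 10394 genes, same-numbered libraries did not deviate together (correlations of −0.00111 and 0.00875). With 1 pair of groups per line, this does not show whether they shared a culture or a run. Replicate 2 of both NCI-H660 groups had the shorter length behind MNT. With the replicate block, 3536, 2949, 13118 and 3576 genes and 3, 4, 5 and 3 members were called in the 4 comparisons. Of all alternative fold changes, 932 kept their direction and side of the thresholds, 59 lost and 14 gained a call, and 39 changed sign. Counts of called list genes moved in 138 alternatives and kept within 1.5 times in 492, and list medians moved in 105 and not in 285. The cause of these shifts was not tested. With 2 libraries per group and 24 to 53 MYCN counts, small differences were not detectable.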
